A study of Mus musculus with 24 samples.

Results

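The genes described here are those of the receptors for interleukin-2 (IL-2) and interleukin-15 (IL-15), of the related receptor chains for IL-7 and IL-21, and of the kinases and STAT5 proteins that carry their signals. They were chosen by name for this pathway. They number 10 (Il2ra, Il2rb, Il2rg, Il15ra, Il7r, Il21r, Jak1, Jak3, Stat5a and Stat5b) of 45237 genes in the deposited count table, and all 10 were among the 17097 genes with enough reads to be tested.

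Poly(A) RNA was sequenced from 24 bulk samples of splenic NK cells, sorted by flow cytometry, in 7 groups. All hosts were wild-type (WT) C57BL/6J mice, by the study's methods female and 7 to 9 weeks old unless stated otherwise. Control mice were not treated (4 libraries). The other mice received an intravenous injection of RMA cells, a T lymphoma line that does not stimulate NK cells, or of RMA-KR cells, its derivative that strongly stimulates them. RMA-KR cells lack B2m, and with it surface MHC class I, carry the NKG2D ligand Rae1-β, and were cloned by limiting dilution. By the study, both RMA and RMA-KR cells express the fluorescent protein ZsGreen. The early stage was day 2 for both tumors (3 libraries each). The intermediate stage was day 4 for RMA (3 libraries) and day 7 for RMA-KR (5 libraries), and the late stage was day 9 for RMA (3 libraries) and day 14 for RMA-KR (3 libraries). At the intermediate and late stages the tumor line and the day of sampling therefore cannot be told apart. The comparisons ask how the genes of the IL-2 and IL-15 pathway differ between NK cells of tumor-bearing and control mice, between the tumors at each stage, and between the early and late stages.

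IL-15 keeps NK cells alive and primes them, and IL-2 drives their growth and cytotoxicity. Both cytokines signal through the same pair of chains, the β chain encoded by Il2rb and the common γ chain encoded by Il2rg, while the α chains encoded by Il2ra and Il15ra raise the affinity for, or present, IL-2 and IL-15. The β chain binds the kinase JAK1 and the γ chain binds JAK3, and these phosphorylate STAT5A and STAT5B, which enter the nucleus and switch on genes for survival, growth and killing.

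The libraries held 5138651 to 14863500 counts, with a median of 10489204. Levels are given as normalized CPM, the reads of a gene relative to the library's total, scaled by the TMM method. A count of 0 allows a mean of up to 3 counts, which corresponded to 0.208 to 0.554 CPM in these libraries, for counting error alone. The NK cell label was checked against markers. Ncr1, which encodes NKp46, ranged from 1625 to 4040 CPM over the 24 libraries, and Eomes, a transcription factor of NK cells, from 161 to 388 CPM. Of the genes that define other lymphocytes, Cd3e of T cells reached at most 5.00 CPM and Foxp3 of regulatory T cells 2.22 CPM. Others reached higher levels, among them Ikzf2 with up to 54.1 CPM, Cd22 with 46.6, Cd3d with 30.6, Cd3g with 24.2, Cd5 with 23.5 and Cd79b with 17.4. Lat lay between 32.0 and 117 CPM and Trbc2 between 75.1 and 170 CPM. The summed markers of granulocytes reached 9.86 CPM and those of red blood cells 3.57 CPM, dendritic cell markers summed to at most 52.4 CPM, and plasma cell markers reached 151 CPM, of which Igkc in RMA-KR late 2 gave 134. The T cell list (11 genes) summed to between 241 and 406 CPM, with Cd28 its most abundant gene. The macrophage and monocyte list summed to between 144 and 589 CPM, mostly from Ly6c2, and the list for innate lymphoid cells of groups 2 and 3 to between 132 and 295 CPM, mostly from Gata3. NK cells themselves express Cd28, Ly6c2 and Gata3.

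Control 4 and RMA-KR intermediate 3, 4 and 5 stood apart from the other 20 libraries. In these 4, the sum of 12 immediate early and heat shock genes, which respond to the handling of cells, lay between 1230 and 1369 CPM, against 4335 to 9835 CPM in the others. Among those others the sum also differed between groups. It was 4732 to 5117 CPM in RMA intermediate and 4335 to 5614 CPM in RMA late, below all the rest at 6232 to 9835 CPM, with controls 1 to 3 at 7062 to 8548 CPM. Differences between these 2 RMA groups and the other groups therefore go together with the level of handling genes, whose part in them was not tested. In control 4 and RMA-KR intermediate 3, 4 and 5 the level of Il7r, the α chain of the IL-7 receptor, was 65.5 to 133 CPM, above the 0.103 to 24.3 CPM of every other library. A list of 6 immature NK cell genes summed to 1318, 1339, 1693 and 1578 CPM in control 4 and RMA-KR intermediate 3, 4 and 5, against 489 to 1097 CPM elsewhere, with all 6 detected and Cd7 the most abundant. A list of 6 genes of group 1 innate lymphoid cells (ILC1) summed to 112, 152, 189 and 146 CPM in the same order, against 13.3 to 71.1 CPM elsewhere, again with all 6 detected, and with Cxcr6 the most abundant in control 4 and Tmem176b in the other 3. The B cell list summed to 30.3 CPM in control 4 and to 51.2, 53.1 and 34.2 CPM in RMA-KR intermediate 3, 4 and 5, with Cd22 the most abundant, against 0.4 to 42.0 CPM in the others, with a median of 5.57. Cd22 was at 20.5 to 46.6 CPM, Cd3d at 14.7 to 30.6 CPM and Cd3g at 14.4 to 24.2 CPM in these 4 libraries, against medians of 0.740, 5.04 and 6.77 CPM and highest levels of 21.6, 17.2 and 23.8 CPM in the others. The regulatory T cell list stayed at 31.3 CPM or less in these and 57.5 CPM or less in the others, mostly from Ikzf2. The 8 genes of the NK cell list summed to 15121 to 19166 CPM in these libraries and 19634 to 31196 CPM in the others. The 5 mature NK cell genes summed to 896 to 1553 CPM in these libraries and 1436 to 2312 CPM in the others. Several results that include RMA-KR intermediate or control libraries are also given without these 4, and the part of handling or of cell composition in them was not tested.

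The genes of the pathway differed widely in abundance. On the scale of normalized CPM per kilobase of exon, the median level in control NK cells was 504 for Il2rb, 360 for Jak1 and 223 for Il2rg, and the control libraries of each of these genes lay wholly above those of the next. A gap followed. Jak3, the kinase of the γ chain, had a median of 32.6 per kilobase, and Il21r, the specific chain of the IL-21 receptor, one of 19.7. The STAT5 genes came next, Stat5b at 14.0 per kilobase and Stat5a at 7.39, with every control library of Stat5b above every one of Stat5a. Il15ra had a median of 7.06 per kilobase and Il7r one of 3.49, and Il2ra, the α chain that makes the IL-2 receptor high in affinity, had the lowest at 0.191. Neighbours whose libraries overlapped were Jak3 and Il21r, Il21r and Stat5b, Stat5a and Il15ra, and Il15ra and Il7r. In RMA intermediate and RMA late the median of Il2rg passed that of Jak1, with overlapping libraries, and Il2ra was lowest in every group.

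**Figure D1:**
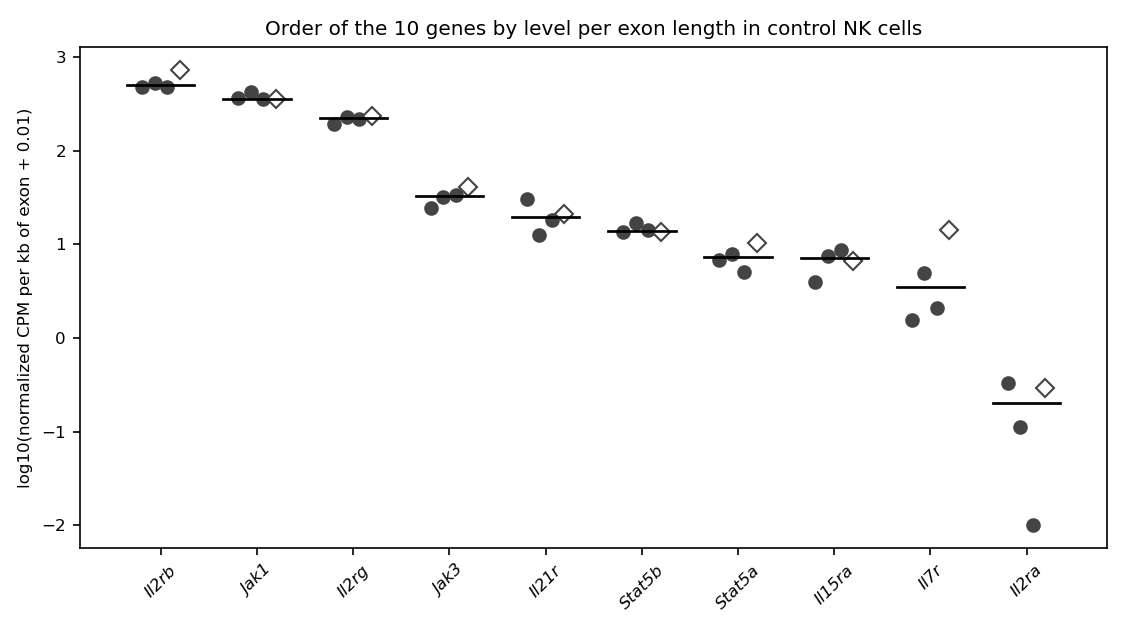
Level of each of the 10 genes in the 4 control libraries, as log10 of normalized CPM per kilobase of exon plus 0.01, with 1 point per library, a line at the median and an open diamond for control 4. Il2rb, Jak1 and Il2rg, with medians of 504, 360 and 223, sit above the other 7 genes.

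Some reads of these genes can be counted poorly. In GENCODE M21, 728 exonic bases of Il2rg, 30.5% of its exon length, are shared with Gm20489 on the same strand, and 404 bases of Jak3, or 7.55%, with Insl3. Reads that fall within such bases are assigned to neither gene in the counting mode used. Of the 7407 words of 50 bases in Stat5a, 608 or 8.21% also occur in Stat5b, which has 5535 such words. The levels per kilobase of Il2rg, Jak3, Stat5a and Stat5b can therefore be understated.

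No gene of the 10 passed the test in any of the 12 comparisons, which required an adjusted p under 0.05 over all tested genes and a change of more than 2-fold. Among all tested genes the same rule called 0% in early RMA against control, 0.0819% in early RMA-KR, 1.65% in intermediate RMA, 0.0175% in intermediate RMA-KR, 0.983% in late RMA-KR and 1.79% in late RMA. Between the tumors it called 0.304% at the early stage, 0.503% at the intermediate stage and 0% at the late stage. From the early to the late stage it called 2.01% in RMA and 0.322% in RMA-KR, and 0% for the difference between these changes. In bulk RNA, fewer cells that express a gene and less of its RNA per cell cannot be told apart. With shares this small, a count of 0 among 10 genes is close to the background. The counts of 0 come from edgeR. At an unadjusted p under 0.05, edgeR gave 1 of the 10 genes in early RMA beside 7.04% of all tested genes, 1 in early RMA-KR beside 8.71%, 2 in intermediate RMA beside 15.9%, 3 in intermediate RMA-KR beside 5.91%, 2 in late RMA-KR beside 14.2% and 3 in late RMA beside 14.0%, each against control. Between the tumors it gave 3 of 10 at each stage, beside 12.3% at the early, 14.2% at the intermediate and 7.31% at the late stage. From early to late it gave 3 in RMA beside 17.2% and 1 in RMA-KR beside 2559 of 17097 genes, and 2 for the difference between these changes beside 10.4%. Il2ra, without reads in RMA-KR late, was among the genes counted in late RMA-KR against control and in late RMA against late RMA-KR. DESeq2 with its default settings called 1 of the 10 genes, Il21r, in late RMA against late RMA-KR and in late against early RMA, and 0 in the other 10 comparisons. The shares of all tested genes above are those of edgeR. The share that DESeq2 called is not given here, so its counts stand without a background.

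Groups without overlap were counted too, as a description. Against control, the libraries of 1 of the 10 genes did not overlap in early RMA (Il7r) beside 7.05% of all tested genes, 2 in early RMA-KR (Il2rg and Jak1) beside 10.5%, 2 in intermediate RMA (Il2rg and Jak1) beside 20.7%, 1 in intermediate RMA-KR (Il2rg) beside 2.63%, 3 in late RMA (Il2rg, Jak1 and Stat5b) beside 18% and 1 in late RMA-KR (Il2rg) beside 13.6%. From early to late they were 2 in RMA (Il2rg and Il21r) beside 19.1% and 1 in RMA-KR (Jak3) beside 15.5%. With 10 genes, these counts are close to what the shares give.

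For several genes the 95% interval stayed inside 2-fold. Each interval was taken alone and rests on the spread between samples. The 95% interval of the log2 fold change of Il2rb and of Jak1 lay inside 2-fold in all 12 comparisons, and that of Il2rg in all but the difference between the tumors in the change from early to late. Inside 2-fold lay 7 of the 10 genes in early RMA against control, 5 in early RMA-KR, 6 in intermediate RMA, 7 in intermediate RMA-KR, 4 in late RMA-KR and 5 in late RMA. Il2ra and Il7r had intervals too wide for this in every comparison. The median log2 fold change of the 10 genes against control was 0.03 in early RMA beside −0.06 over all tested genes, −0.06 beside 0.00 in early RMA-KR and −0.07 beside −0.29 in intermediate RMA. It was 0.38 beside 0.01 in intermediate RMA-KR, −0.34 beside −0.18 in late RMA and 0.14 beside −0.18 in late RMA-KR. Without the 4 libraries that stood apart it was −0.03 beside −0.14 in intermediate RMA-KR, 0.16 beside 0.02 in early RMA, 0.02 beside 0.07 in early RMA-KR, −0.01 beside −0.22 in intermediate RMA, −0.25 beside −0.12 in late RMA and 0.15 beside −0.08 in late RMA-KR. These 6 comparisons share the control libraries. Between the tumors the median of the 10 genes was 0.17 beside −0.03 at the early stage, −0.31 beside −0.23 at the intermediate stage (−0.06 beside 0.00 without the 4 libraries) and −0.29 beside 0.06 at the late stage. From early to late it was −0.30 beside −0.05 in RMA and 0.05 beside −0.10 in RMA-KR, and for the difference between these changes −0.39 beside 0.12. Il2ra enters these medians at its fitted value, also against RMA-KR late, where it had no reads, and the median of the other 9 genes was 0.17 in late RMA-KR against control, −0.31 in late RMA against late RMA-KR, −0.16 from early to late RMA, 0.11 from early to late RMA-KR and −0.61 for the difference between these changes.

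**Figure D2:**
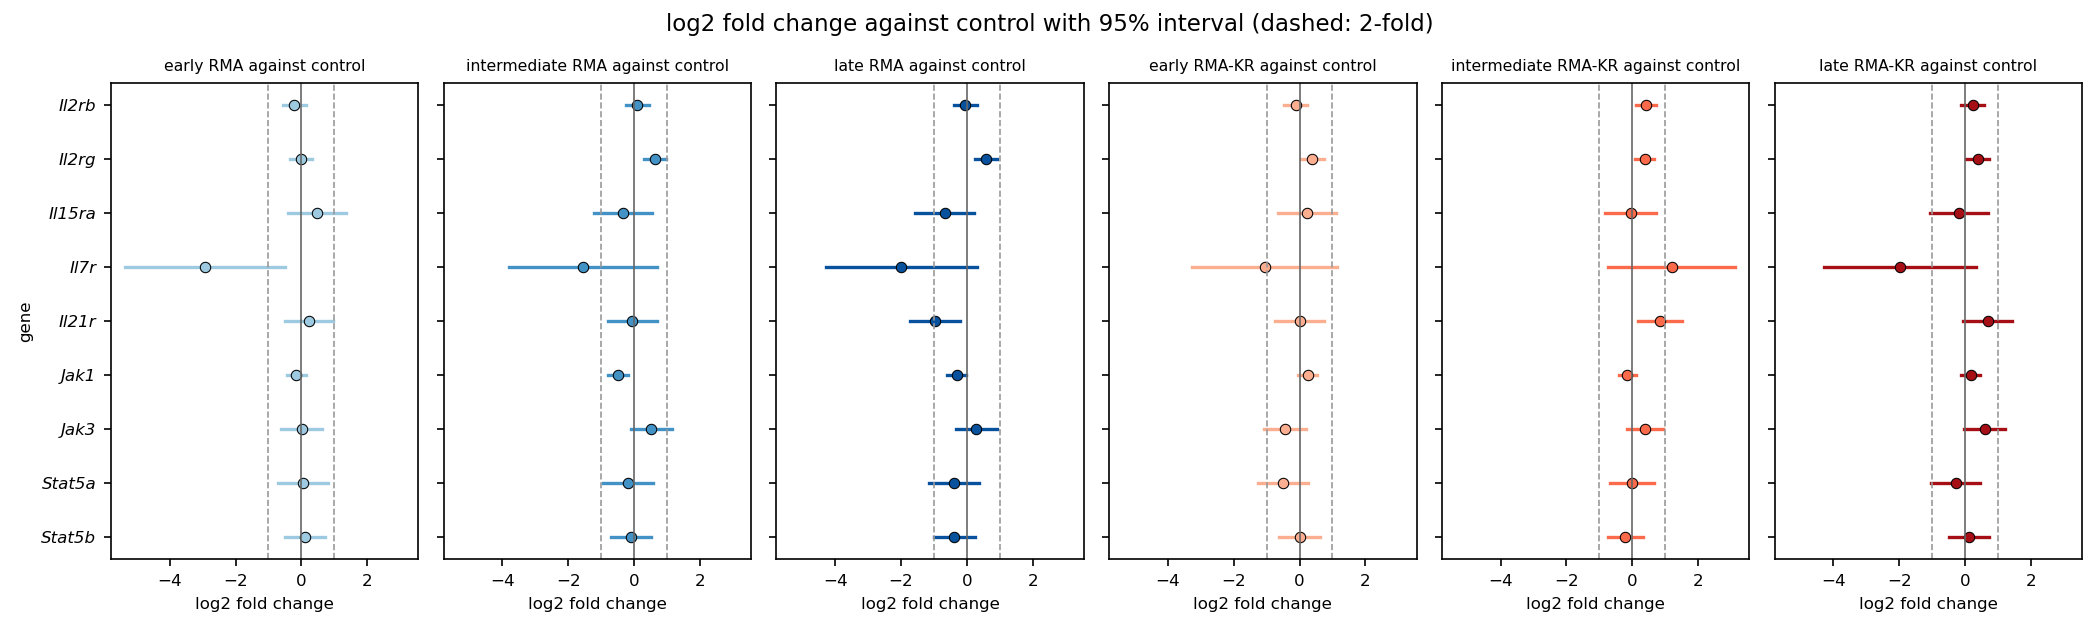
log2 fold change of 9 of the genes against control in each of the 6 tumor groups, with the 95% interval as a bar and 2-fold as dashed lines. Il2ra, with no reads in RMA-KR late, is left out, and the intervals of Il2rb and Jak1 lie inside 2-fold in every panel.

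Il2rb encodes the signaling β chain shared by the IL-2 and IL-15 receptors. It lies at chr15:78479256-78495271 on the minus strand (GRCm38). Its level in control NK cells was 2062, 2260, 2061 and 3134 CPM, and in RMA-KR intermediate 3304, 2474, 3123, 3711 and 3333 CPM. Control 4, one of the libraries low in handling genes, was the highest control and lay within the range of RMA-KR intermediate, so the groups overlapped. The log2 difference was 0.42 (SE 0.15, 5 against 4 libraries, adjusted p = 0.692), and it was 0.46 (adjusted p = 0.733) without the 4 libraries that stood apart. Among the remaining libraries, RMA-KR intermediate 1 and 2 at 3304 and 2474 CPM were above controls 1 to 3. In the other tumor groups Il2rb ranged from 1767 CPM in RMA early 1 to 3524 CPM in RMA-KR late 2. Its group medians ran from 2141 CPM in RMA early to 3304 CPM in RMA-KR intermediate, and each group overlapped the next in that order.

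Il2rg encodes the γ chain shared by the receptors for IL-2, IL-4, IL-7, IL-9, IL-15 and IL-21. It lies at chrX:101264378-101268255 on the minus strand. Its level was 457, 544, 521 and 565 CPM in control, 627, 929 and 860 CPM in RMA intermediate and 956, 756 and 618 CPM in RMA late. All 6 of these tumor libraries were above all 4 controls. The log2 difference from control was 0.63 in intermediate RMA (SE 0.16, 3 against 4 libraries, 95% interval 0.29 to 0.96, adjusted p = 0.0385). It passed the adjusted p but not the 2-fold limit, and it was the 1 gene of the 10 to pass the adjusted p in any of the 12 comparisons. Of all tested genes 2.35% passed the adjusted p in intermediate RMA, whatever their fold. In late RMA the log2 difference was 0.57 (SE 0.16, 3 against 4 libraries, adjusted p = 0.0594). In RMA early, by contrast, the levels were 438, 614 and 493 CPM and overlapped the controls, with a log2 difference of −0.02. From early to late RMA the log2 difference was 0.59 (SE 0.18, 3 against 3 libraries, adjusted p = 0.0673), with every late library above every early one.

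The adjusted p of Il2rg in intermediate RMA depended on single libraries and on the setting. It was 0.0190 without RMA intermediate 1, and above 0.05, up to 0.234, when any other library of the comparison was left out, while the log2 difference stayed between 0.54 and 0.81. Among 9 alternatives the adjusted p lay between 0.00767 and 0.0893, and it was 0.0437 without the 4 libraries that stood apart.

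In mice with RMA-KR cells, Il2rg was at 660, 670 and 724 CPM in the early group, 796, 779, 619, 603 and 588 CPM in the intermediate group and 674, 712 and 652 CPM in the late group. Each of these libraries was above the highest control, 565 CPM. The log2 difference from control was 0.39 in early RMA-KR (adjusted p = 0.536), 0.38 in intermediate RMA-KR (adjusted p = 0.737) and 0.38 in late RMA-KR (adjusted p = 0.326), none of which passed the test. Without the 4 libraries that stood apart the intermediate difference was 0.65. Of these 4, RMA-KR intermediate 3, 4 and 5 were the lowest of their group and control 4 was the highest control. At the early stage all 3 RMA libraries lay below all 3 RMA-KR libraries, with a log2 difference of −0.41 (SE 0.18, adjusted p = 0.359). The change from early to late differed between the tumors by 0.60 on the log2 scale (SE 0.25, adjusted p = 0.420).

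**Figure D3:**
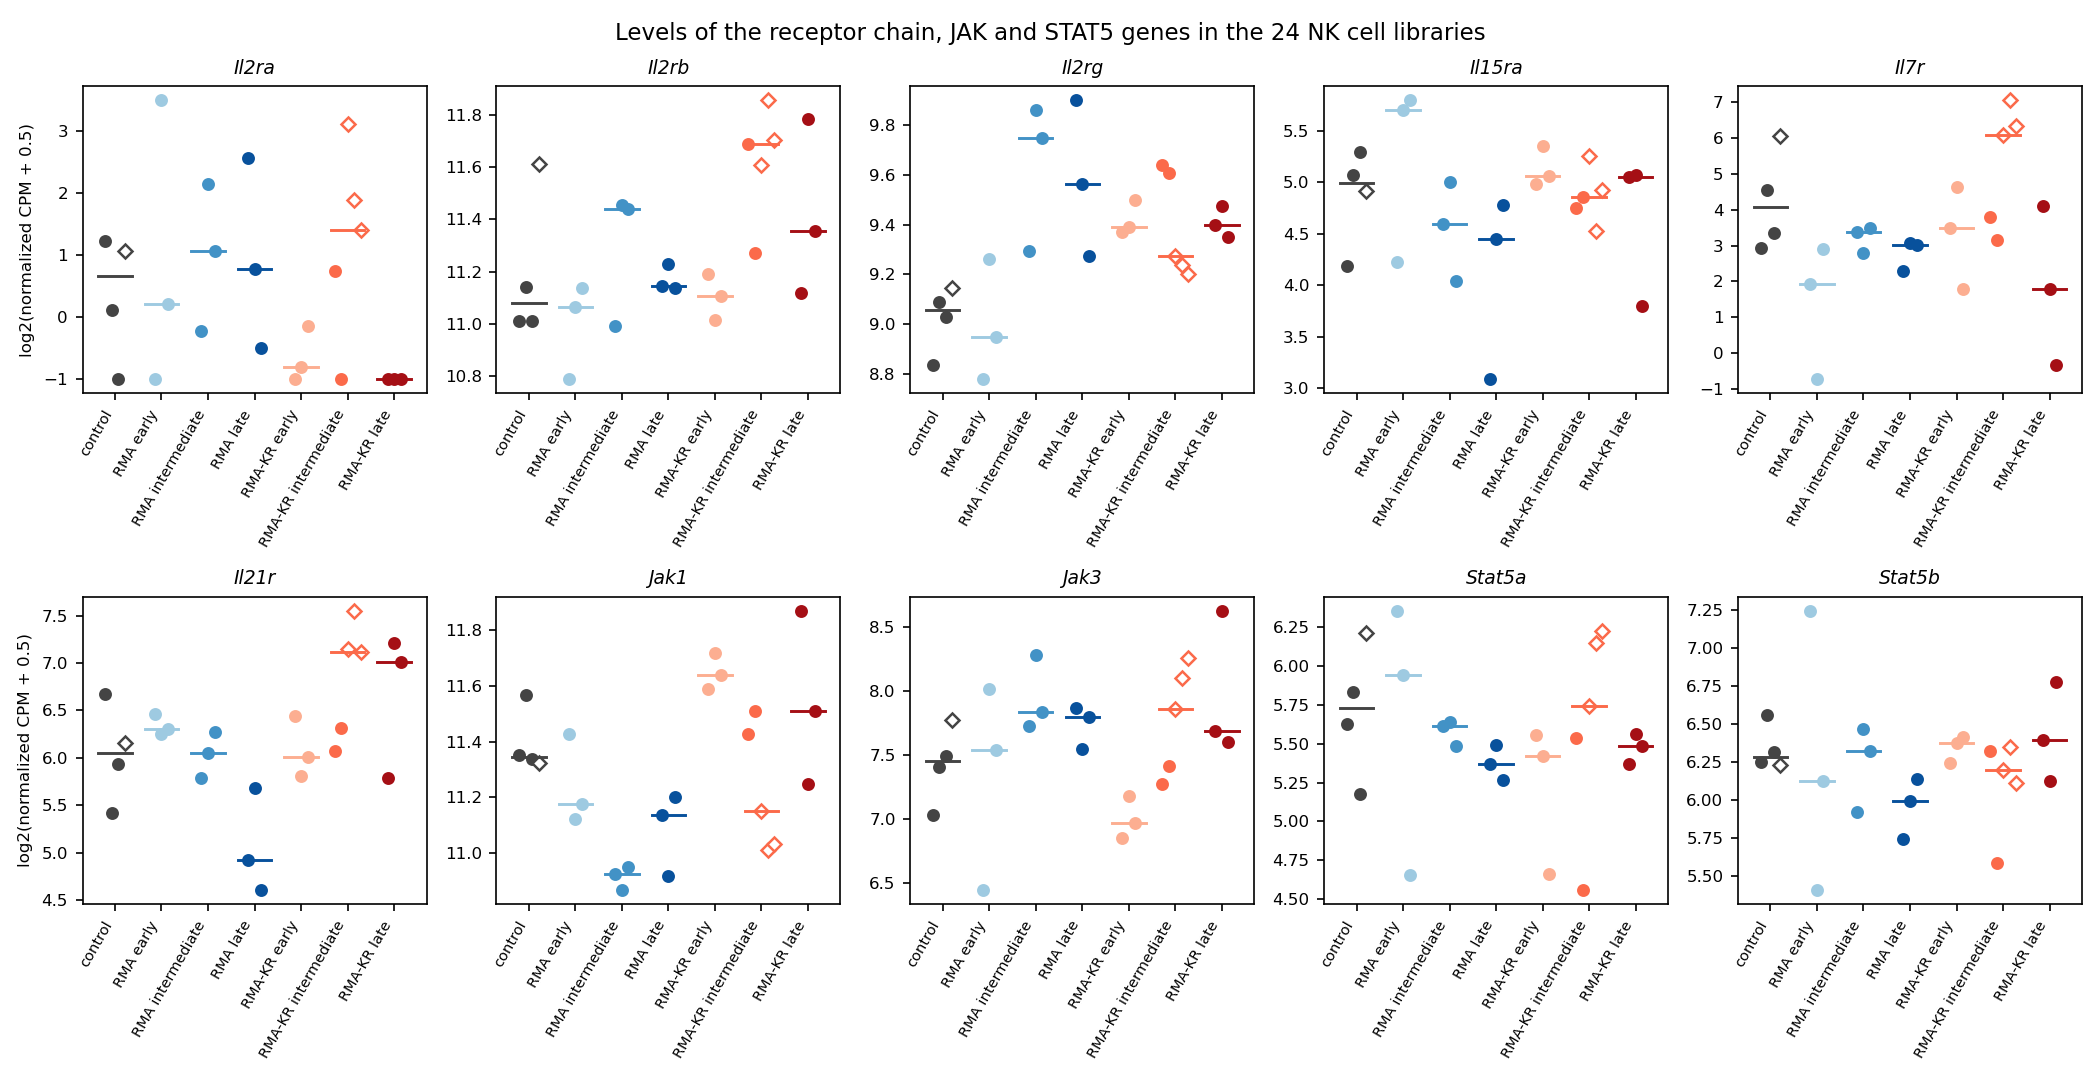
Level of each of the 10 genes in the 24 libraries as log2 of normalized CPM plus 0.5, with 1 point per library, a line at the group median and open diamonds for control 4 and RMA-KR intermediate 3, 4 and 5. Il2rg lies above all controls in every library of RMA intermediate and RMA late, and Il7r is highest in the 4 diamonds.

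Il2ra and Il15ra encode the α chains and are neighbours on chromosome 2, at chr2:11642807-11693193 and chr2:11705290-11734317, both on the plus strand. Il2ra was at 1.85, 0.579, 0 and 1.61 CPM in control, at 5.42, 1.21 and 0.210 CPM in RMA late, and had a count of 0 in all 3 libraries of RMA-KR late. A count of 0 there allows up to 0.267, 0.211 and 0.289 CPM by the limit of 3 counts per library. RMA late 1 and 2 were above these limits and RMA late 3 was within them, and no fold change is given against a group without reads. The highest Il2ra level was 10.8 CPM in RMA early 2, whose group mates had 0 and 0.661 CPM, and the next was 8.14 CPM in RMA-KR intermediate 3. Il15ra was at 18.3, 51.8 and 55.3 CPM in RMA early and at 8.0, 21.3 and 27.0 CPM in RMA late. RMA early 1 lay within the range of the late group, and the log2 difference of late against early RMA was −1.15 (SE 0.46, 3 against 3 libraries, adjusted p = 0.202). Without 1 library at a time that difference lay between −1.51 and −0.73. Control NK cells had 17.7 to 38.9 CPM of Il15ra, a range that overlapped each tumor group.

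Il7r encodes the α chain of the receptor for IL-7, which is more common on immature NK cells and other innate lymphoid cells than on mature NK cells. The gene lies at chr15:9505788-9530176 on the minus strand. It was at 7.21, 22.8, 9.80 and 65.5 CPM in control and at 13.5, 8.37, 66.8, 133 and 80.6 CPM in RMA-KR intermediate. In both groups the high values were those of the libraries low in handling genes and high in immature NK cell and ILC1 genes. The log2 difference of intermediate RMA-KR from control was 1.2 (SE 0.94, adjusted p = 0.999) with all libraries and −0.26 without these 4. RMA intermediate had 9.88, 6.47 and 10.7 CPM, which put it below RMA-KR intermediate 3 to 5 and level with RMA-KR intermediate 1 and 2. The log2 difference between the tumors at that stage was −2.75 (SE 1.13, adjusted p = 0.344) and shrank to −0.28 without the 4 libraries. In RMA early, Il7r was at 3.34, 0.103 and 7.01 CPM, below every control, with a log2 difference of −2.93 (SE 1.18, adjusted p = 0.702) that was −1.89 without the 4 libraries.

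**Figure D4:**
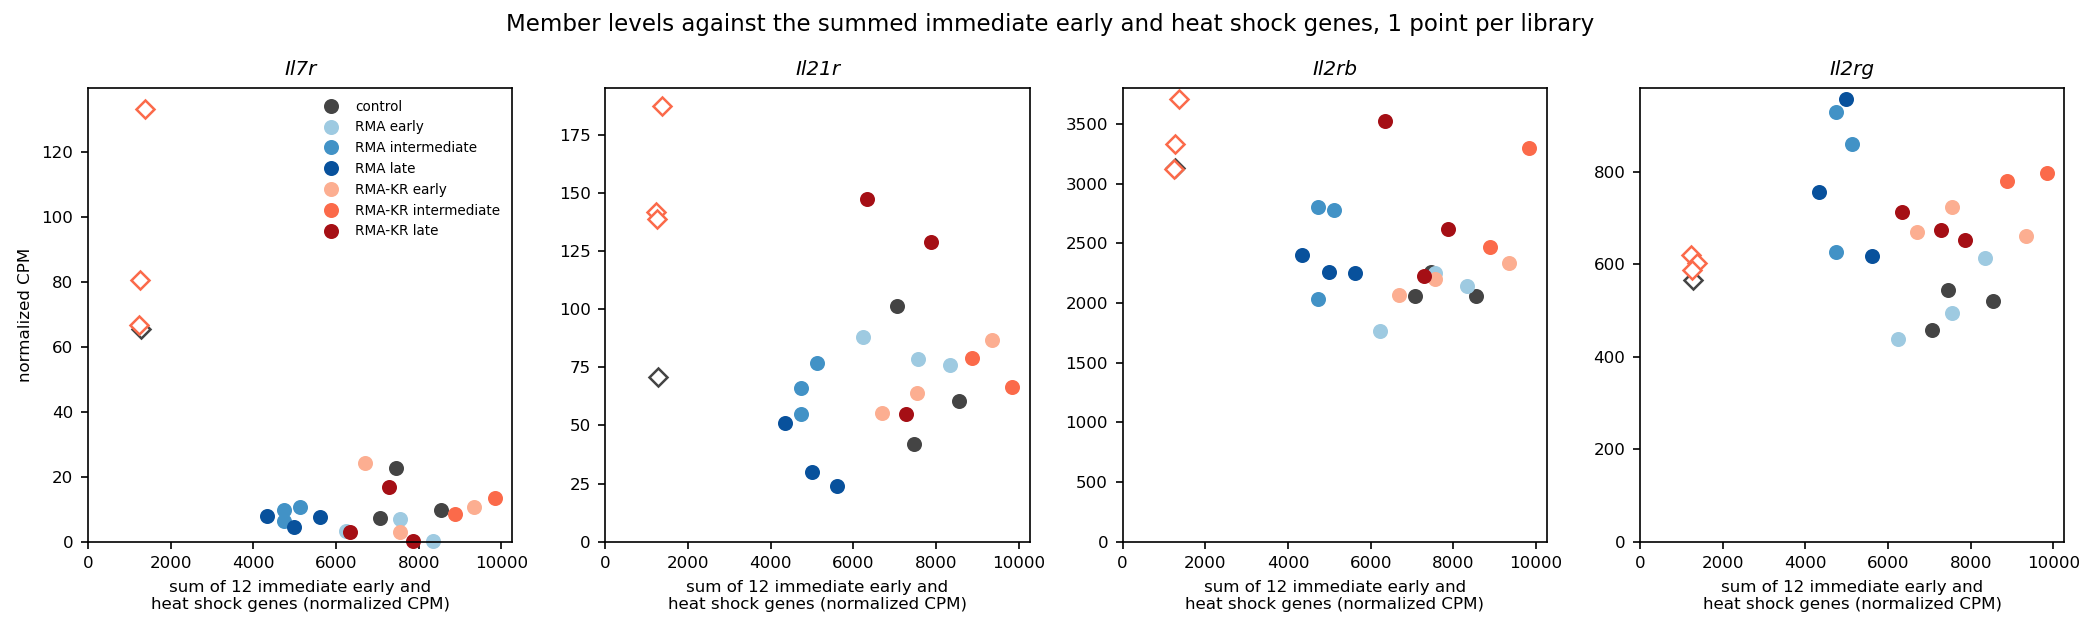
Normalized CPM of Il7r, Il21r, Il2rb and Il2rg in each of the 24 libraries against the sum of 12 immediate early and heat shock genes in normalized CPM, with open diamonds for control 4 and RMA-KR intermediate 3, 4 and 5. The 4 diamonds have sums of 1230 to 1369 CPM and the highest Il7r levels, 65.5 to 133 CPM.

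STAT5 binds the motif TTCNNNGAA, which reads the same on both strands. The motif was looked for in the RefSeq promoter windows (build GRCm38.p6, 300 bases each) of the 10 genes and of 16 known STAT5 target genes, since both groups are tied to STAT5. It occurred in 2726 of 32851 promoter windows of all genes, or 8.30%. That share counts windows, while the counts that follow are of genes with a match in any window. Some of these genes have more than 1 window, so the units differ. Of the 9 receptor, kinase and STAT genes with an entry (Il2rb had none), 1 held the motif, Il7r. Of 12 target genes with an entry, 3 held it, namely Cish, Socs3 and Gzmb. The windows of Il7r (chr15:9529827-9530126, minus strand), Cish (chr9:107296409-107296708, plus strand) and Gzmb (chr14:56262285-56262584, minus strand) are printed with the motif in capitals, and that of Il2rg (chrX:101268206-101268505, minus strand), which has no match, is shown because Il2rg had the lowest adjusted p of the 10 genes against control.
Il7r: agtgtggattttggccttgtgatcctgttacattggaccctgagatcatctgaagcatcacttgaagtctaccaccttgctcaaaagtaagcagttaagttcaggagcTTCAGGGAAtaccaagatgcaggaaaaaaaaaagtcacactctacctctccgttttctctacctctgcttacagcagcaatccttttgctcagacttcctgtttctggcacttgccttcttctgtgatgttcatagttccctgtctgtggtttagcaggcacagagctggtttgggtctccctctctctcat
Cish: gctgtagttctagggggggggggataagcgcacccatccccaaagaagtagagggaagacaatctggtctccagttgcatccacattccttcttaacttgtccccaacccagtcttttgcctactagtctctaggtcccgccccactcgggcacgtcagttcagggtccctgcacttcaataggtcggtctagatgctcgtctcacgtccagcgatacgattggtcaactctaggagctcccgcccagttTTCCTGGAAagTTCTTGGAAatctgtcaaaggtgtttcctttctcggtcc
Gzmb: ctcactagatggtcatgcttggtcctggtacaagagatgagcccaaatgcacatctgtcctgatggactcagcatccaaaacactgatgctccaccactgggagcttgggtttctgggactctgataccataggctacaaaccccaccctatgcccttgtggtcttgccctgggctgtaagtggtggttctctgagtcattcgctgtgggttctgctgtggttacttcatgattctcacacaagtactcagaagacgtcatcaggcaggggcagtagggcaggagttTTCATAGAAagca
Il2rg: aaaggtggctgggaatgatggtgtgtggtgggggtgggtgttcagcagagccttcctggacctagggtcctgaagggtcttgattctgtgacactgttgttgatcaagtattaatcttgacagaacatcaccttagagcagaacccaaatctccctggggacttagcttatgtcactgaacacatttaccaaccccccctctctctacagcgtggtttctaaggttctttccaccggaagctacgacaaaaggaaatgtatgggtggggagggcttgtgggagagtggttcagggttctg
A match describes these letters alone. Counted from the RefSeq start on which each window was placed, the match of Il7r begins at −142, the 2 of Cish at 0 and 11, and that of Gzmb at 37. By the coordinates in the count table, Il7r starts 300 bases upstream of that RefSeq start and Cish 633 bases upstream, so both windows lie inside the annotated genes.

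Il21r encodes the chain that binds IL-21, a cytokine of activated T cells that acts on NK cells, and lies at chr7:125603429-125633570 on the plus strand. Its level was 87.8, 75.9 and 78.4 CPM in RMA early and 29.9, 51.0 and 23.9 CPM in RMA late, and every late library was below every early one. In RMA-KR it was 86.6, 55.5 and 63.7 CPM early and 54.8, 147 and 129 CPM late, so that RMA-KR late 2 and 3 were above and RMA-KR late 1 below their early group. All 3 libraries of RMA late were also below all 3 of RMA-KR late. The log2 difference of late RMA from late RMA-KR was −1.66 (SE 0.39, 3 against 3 libraries, 95% interval −2.47 to −0.84), with an unadjusted p of 0.000340 and an adjusted p of 0.646 from edgeR. DESeq2 with its default settings gave an adjusted p of 0.00634 for it, the lowest of 9 alternatives, over which the adjusted p reached 0.895. Of the 10 genes, 3 had non-overlapping groups here (Il2ra, Il21r and Jak1), beside 9.13% of all tested genes. Il2ra is among them only by the 0.210 CPM of RMA late 3, which is within the limits for a count of 0, and apart from it they were 2.

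The log2 difference of Il21r between late and early RMA was −1.21 (SE 0.39, 3 against 3 libraries, adjusted p = 0.0996), and 3 of the 9 alternatives called it, with adjusted p values from 0.0293 to 0.165 over all 9. The change from early to late differed between the tumors by −1.89 on the log2 scale (SE 0.55, 95% interval −3.03 to −0.76, adjusted p = 0.336). The control levels of Il21r, 101, 42.1, 60.6 and 70.7 CPM, overlapped both late groups. In RMA-KR intermediate, Il21r was at 66.6, 79.1, 142, 187 and 139 CPM. The high values were those of libraries 3, 4 and 5, which also stood apart in handling genes, and the log2 difference from control was 0.84 (SE 0.32, adjusted p = 0.737) with all libraries and 0.11 without the 4.

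Jak1 encodes the kinase bound to the β chain and to many other cytokine receptors, and lies at chr4:101152367-101265282 on the minus strand. It was at 2616, 3037, 2586 and 2561 CPM in control and at 1946, 1868 and 1979 CPM in RMA intermediate. All 3 tumor libraries were below all controls, with a log2 difference of −0.48 (SE 0.14, 3 against 4 libraries, 95% interval −0.78 to −0.19, adjusted p = 0.0807). RMA late, at 2251, 1936 and 2355 CPM, was also below every control, with a log2 difference of −0.31 (SE 0.14, adjusted p = 0.338). In RMA-KR, Jak1 was at 3079, 3366 and 3186 CPM in the early group, 2754, 2918, 2274, 2061 and 2096 CPM in the intermediate group and 3743, 2433 and 2917 CPM in the late group. The early group lay above all controls, with a log2 difference of 0.25 (SE 0.14, adjusted p = 0.643), and the other 2 overlapped them.

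At each stage the RMA libraries had less Jak1 than the RMA-KR libraries, with no overlap. RMA early, at 2754, 2227 and 2315 CPM, differed from RMA-KR early by −0.40 on the log2 scale (SE 0.15, adjusted p = 0.328), and Il2rg and Jak1 were the 2 of 10 genes without overlap there, beside 12.8% of all tested genes. At the intermediate stage the log2 difference was −0.33 (SE 0.14, adjusted p = 0.345), and Jak1 was the 1 gene of 10 without overlap, beside 9.18% of all tested genes. At the late stage it was −0.48 (SE 0.15, adjusted p = 0.655), and between −0.61 and −0.29 without 1 library at a time. None of these passed the test, and all 3 intervals stayed inside 2-fold. RMA-KR intermediate 1 and 2 held the highest Jak1 levels of that group, and without the 4 libraries the intermediate difference was −0.56. The handling sums of these 2 were 9835 and 8880 CPM, against 4732 to 5117 CPM in RMA intermediate, so libraries unlike in handling genes are still compared there.

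Jak3 encodes the kinase bound to the γ chain, and lies at chr8:71676296-71690575 on the plus strand. In RMA-KR it was at 115, 145 and 125 CPM in the early group and 206, 396 and 194 CPM in the late group. Every late library was above every early one, and RMA-KR late 2 was the highest of all 24. The log2 difference of late against early RMA-KR was 1.05 (SE 0.33, 3 against 3 libraries, 95% interval 0.37 to 1.72, adjusted p = 0.174), and it passed the test only when no filter on low counts was used (adjusted p = 0.0195, from a range of 0.0195 to 0.320 over the 9 alternatives). Without 1 library at a time it stayed between 0.67 and 1.27. Control NK cells had 131, 169, 180 and 219 CPM of Jak3, which overlapped both groups. In RMA, Jak3 was at 86.6, 258 and 185 CPM early and 233, 187 and 222 CPM late, with a log2 difference of 0.28 (SE 0.32, adjusted p = 0.701).

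The STAT5 genes lie side by side on chromosome 11, Stat5a at chr11:100859351-100885169 on the plus strand and Stat5b at chr11:100780731-100850724 on the minus strand, and encode nearly equivalent transcription factors. Stat5a was at 49.0, 56.4, 35.6 and 73.8 CPM in control and between 23.0 and 81.5 CPM over all libraries. Its lowest value was that of RMA-KR intermediate 2 and its highest that of RMA early 1, and no comparison had an unadjusted p under 0.05. Stat5b was at 75.6, 93.7, 79.0 and 74.6 CPM in control and at 52.9, 63.3 and 70.0 CPM in RMA late. All 3 late libraries were below all controls, with a log2 difference of −0.38 (SE 0.30, 3 against 4 libraries, 95% interval −1.0 to 0.23, adjusted p = 0.635). Over all libraries Stat5b ran from 41.9 CPM in RMA early 2 to 151 CPM in RMA early 1, so that 1 group held both extremes. These 2 libraries also correlated least with others of their group, over all genes, with mean r of 0.832 for RMA early 2 and 0.830 for RMA early 1.

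Among 16 genes known as STAT5 targets, the test called 3 higher and 0 lower in intermediate RMA beside 1.65% of all tested genes, 1 higher and 0 lower in intermediate RMA-KR beside 0.0175%, 2 higher and 0 lower in late RMA beside 1.79%, 2 higher and 0 lower in late RMA-KR beside 0.983%, 0 in early RMA beside 0% and 0 in early RMA-KR beside 0.0819%, all against control. Their median log2 fold change was 0.09 in early RMA beside −0.06 over all tested genes, −0.06 beside 0.00 in early RMA-KR, 0.55 beside −0.29 in intermediate RMA, 0.07 beside 0.01 in intermediate RMA-KR, 0.13 beside −0.18 in late RMA and −0.05 beside −0.18 in late RMA-KR. Without the 4 libraries that stood apart these medians of the targets were, in the same order, 0.03, −0.08, 0.47, 0.25, 0.12 and −0.04. Between the tumors 1 target was called, at the intermediate stage, beside 0.503% of all tested genes, and 0 of 16 were called early, late, from early to late or for the difference between these changes.

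Pim2, a survival kinase, was at 58.2, 101, 79.2 and 104 CPM in control, 146, 198 and 194 CPM in RMA intermediate, 233, 181 and 197 CPM in RMA late and 251, 205 and 260 CPM in RMA-KR late. Every library of these tumor groups was above every control. Its log2 fold change was 1.07 in intermediate RMA (SE 0.26, adjusted p = 0.0284), 1.25 in late RMA (SE 0.26, adjusted p = 0.00890) and 1.48 in late RMA-KR (SE 0.27, adjusted p = 0.00482). In RMA-KR intermediate, at 180, 198, 227, 213 and 358 CPM, Pim2 rose by 1.46 (SE 0.24, adjusted p = 0.0337). That call was lost without the 4 libraries that stood apart (1.27, adjusted p = 0.733), with a term for them (adjusted p = 0.190), with the replicate number as a block (0.14), with only the groups compared (0.245) and with any 1 library left out except RMA-KR intermediate 2. Of the 9 alternatives, 5 kept it. The call in intermediate RMA was lost with any 1 library left out except RMA intermediate 1, with log2 fold changes of 0.89 or more, and that in late RMA without RMA late 1 (adjusted p = 0.0553). The call in late RMA-KR held without any 1 library.

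Myc, which drives growth, was at 57.5, 91.5, 75.0 and 63.0 CPM in control, 144, 178 and 171 CPM in RMA intermediate and 161, 153 and 158 CPM in RMA-KR late. Both tumor groups were wholly above control, by 1.2 (SE 0.22, adjusted p = 0.00415) in intermediate RMA and 1.13 (SE 0.22, adjusted p = 0.0102) in late RMA-KR on the log2 scale, and both calls held without any 1 library. Myc was also above all controls in RMA late, at 98.0 to 156 CPM, and in RMA-KR early, at 101 to 128 CPM, but was not called there. Gzmb, which encodes the killing protease granzyme B, was at 990, 1569, 2887 and 811 CPM in control, 4490, 3973 and 4245 CPM in RMA intermediate and 3249, 4043 and 3328 CPM in RMA late. Both RMA groups were above all controls, of which control 3 was the highest. The log2 fold change was 1.44 in intermediate RMA (SE 0.30, adjusted p = 0.00834), a call lost without control 1 (adjusted p = 0.0533). It was 1.18 in late RMA (SE 0.30, adjusted p = 0.0293), a call lost without control 1, 2 or 4 or RMA late 1 or 2, and without the 4 libraries that stood apart (0.97, adjusted p = 0.0635) or with only the groups compared (adjusted p = 0.0756).

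In RMA-KR intermediate, Gzmb was at 1922, 1832, 1563, 969 and 1136 CPM, below every library of RMA intermediate. The log2 difference between the tumors was 1.51 (SE 0.28, adjusted p = 0.00771), and 1.17 (adjusted p = 0.0973) without the 4 libraries, with an adjusted p of 0.132 with a term for them. Cish, an inhibitor of IL-15 signaling that STAT5 induces, was at 16.8, 29.2, 39.6 and 22.1 CPM in control and 42.3, 38.6 and 43.2 CPM in RMA intermediate. Control 3 lay among the tumor libraries, and the log2 difference was 0.62 (SE 0.59, adjusted p = 0.642). In RMA-KR early, by contrast, Cish was at 0.885 to 13.9 CPM, below all controls, and was not called. The remaining tumor groups overlapped the controls.

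**Figure D5:**
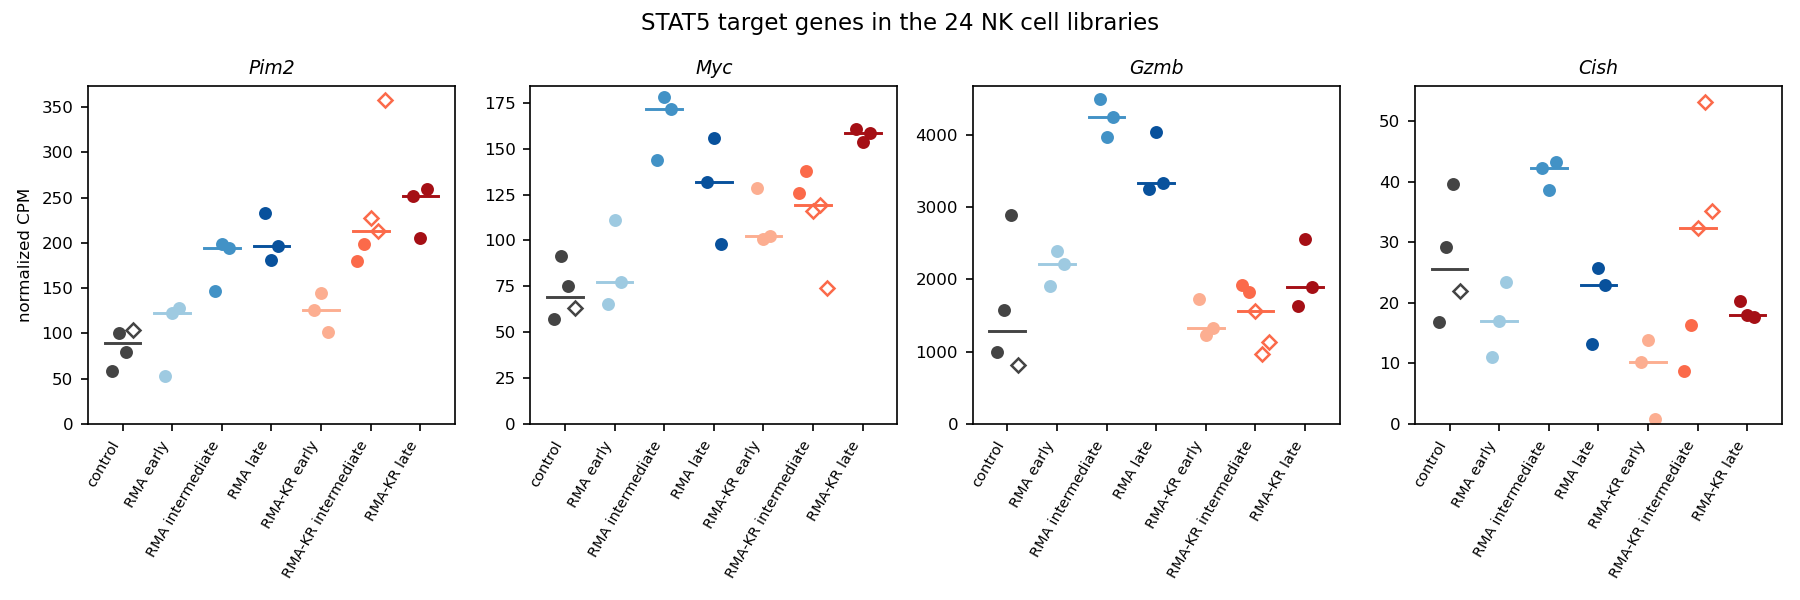
Normalized CPM of the STAT5 target genes Pim2, Myc, Gzmb and Cish in the 24 libraries, with 1 point per library, a line at the group median and open diamonds for control 4 and RMA-KR intermediate 3, 4 and 5. Gzmb has its highest median in RMA intermediate, whose libraries at 3973 to 4490 CPM overlap those of RMA late, and Pim2 is above all controls in the intermediate and late groups of both tumors.

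Among 13 negative regulators of the pathway, 1 was called lower and 0 higher in late RMA-KR beside 0.983% of all tested genes, and 0 in each of the other 11 comparisons. Tsc2, which restrains mTOR, was at 130, 128, 123 and 124 CPM in control and 44.6, 66.9 and 61.2 CPM in RMA-KR late. All 3 of these tumor libraries were below all controls, and Tsc2 fell by 1.13 on the log2 scale (SE 0.25, adjusted p = 0.0200). Tsc2 was also below all controls in RMA late, at 56.4 to 95.5 CPM, and in RMA-KR early, at 56.7 to 108 CPM. Neither of these was called, and RMA late overlapped RMA-KR late. The remaining tumor groups overlapped the controls. The call in late RMA-KR was lost without control 2, RMA-KR late 1 or RMA-KR late 3 (adjusted p up to 0.133) and without the 4 libraries that stood apart (−1.10, adjusted p = 0.0890), and with the replicate number as a block (adjusted p = 0.0636). The median of the 13 genes in late RMA-KR was −0.15, beside −0.18 over all tested genes. None of 14 genes of the PI3K, mTOR and Ras branch passed the test in any of the 12 comparisons, and their median in late RMA-KR was 0.19, beside the same −0.18.

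Of the 6 ligands that use the common γ chain, Il15, Il2 and Il7 were tested, Il4 and Il21 had too few counts and Il9 was not in the table. None passed the test in the 12 comparisons. Il15 was at 14.2, 6.37, 13.2 and 14.5 CPM in control, Il2 at no more than 2.16 CPM and Il7 at no more than 4.93 CPM in any library. Of 4 further receptor chains of the family, 3 were tested and 0 called, and Il9r had too few counts. Among the handling genes, 11 of 12 tested, Egr1 was called higher in late RMA-KR (log2 fold change 1.84, adjusted p = 0.0151) and Fosb lower in late against early RMA (−2.76, adjusted p = 0.0378), and 0 were called in the other 10 comparisons. The Egr1 call was lost without control 3 or 4 or RMA-KR late 3, with the replicate number as a block (adjusted p = 0.0600), with only the groups compared (0.0917) and without the 4 libraries that stood apart (0.0656), so that 6 of the 9 alternatives kept it. The Fosb call was lost without RMA early 1 or 2 or RMA late 1 or 2 and with only the groups compared (0.114), and 8 of the 9 kept it.

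Genes outside these lists with the profile most like each member were named by the Pearson correlation of log2 CPM over the 24 libraries, as a description. Il2rg was most like Eno1, a glycolytic enzyme (r = 0.899), and Pfn1, an actin-binding protein (r = 0.898), with r of 0.897 and 0.919 over the 20 libraries without the 4 that stood apart. Il2rb was most like Prmt1 (r = 0.854) and Cotl1 (r = 0.851), at 0.819 and 0.753 over the 20 libraries. Jak1 was most like Cirbp (r = 0.869) and Sat1 (r = 0.863), Jak3 most like Chek1 (r = 0.825) and Ssrp1 (r = 0.820), and Il7r most like Slc37a3 (r = 0.811) and Zfp65 (r = 0.795). The other 5 genes had weaker best matches, from Il15ra with Klhl28 (r = 0.705) and Sqor (r = 0.708) to Stat5b with Myo19 (r = 0.773) and Gm10767 (r = 0.748). Il21r was most like Pam (r = 0.771) and Xylt2 (r = 0.736), Stat5a most like Bak1 (r = 0.730) and Got1 (r = 0.709), and Il2ra most like Rnf168 (r = 0.720) and Bcl3 (r = 0.707).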

How the data were processed

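RNA of 24 samples of sorted NK cells was sequenced, and the authors deposited counts per gene as 1 table with 112 columns. By the submitters' processing notes, reads were trimmed with cutadapt 1.10, ribosomal reads were removed with Bowtie2 2.2.8, the rest were aligned to mm10 with STAR 2.5.3a and counted with HTSeq 0.6.1p1 in union mode, and DESeq2 1.16.1 gave their own comparisons. The strand setting of the counting is not stated. The 24 columns of raw counts were used. The other columns given for the libraries, 48 in all, and the authors' fold changes and p values were not.

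Counts were fitted with edgeR 4.0.16 and limma 3.58.1 in R 4.3.3, with 1 mean per group over 7 groups, TMM scaling, the filterByExpr filter (17097 of 45237 genes kept) and robust quasi-likelihood tests, adjusted by Benjamini and Hochberg over all 17097 genes. A gene was called at an adjusted p under 0.05 and more than 2-fold. Standard errors and 95% intervals were derived from the fold change and the F statistic. Library totals ran from 5138651 to 14863500 counts. Limits for a count of 0 assume 3 counts per library and cover counting error only. The study counts late and control samples as 3 mice per group, while 4 control libraries were deposited. For the other control and the early and intermediate libraries nothing states separate mice, so there p values measure only the spread between samples. Levels per kilobase used the union of exons in GENCODE M21. The model was tested on simulated data, and no outcome of that test is given here.

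Alternatives were DESeq2 size factors, all genes unfiltered, genes with 10 or more counts in each library, a block for the replicate number, DESeq2 1.42.0 with default settings or with its prior on fold changes, only the groups compared, and each library left out. Leaving out control 4 and RMA-KR intermediate 3, 4 and 5, or a term for them, was chosen after seeing the data. The genes named are the 10 members, the called genes of the other lists (at most 4 for each list and comparison) and, for each member, the 2 genes outside the lists with the highest Pearson correlation over the 24 libraries (prior count 2). Cish, Il2, Il7, Il15 and the markers were named after their values were seen. The members and lists were chosen with earlier results of these data known.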

Additional observations from a re-analysis of the deposited data

Results flagged for a closer look

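Jak1 in control 2 was at 3037 CPM, far from the other controls, of which the nearest was at 2616 CPM, a gap of 0.884 of the group's whole range. Pim2 in RMA-KR intermediate 5 was at 358 CPM, where the nearest library of the group was at 227 CPM, a gap of 0.735 of the range. These were 2 of 30 groups of 4 or 5 libraries checked in this way, and chance gives about 1 in 20. No gene of 15 had all libraries of one tumor above the control mean and all of the other below it at the same stage, over 45 genes and stages checked. In the test of the difference between the tumors in the change from early to late, edgeR gave 0 of the 10 members past an adjusted p of 0.05, 2 at an unadjusted p under 0.05, and DESeq2 with default settings also called 0.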

How the results depend on the processing

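The count of members called was 0 in all 12 comparisons with DESeq2 size factors, with the replicate number as a block, with only the groups compared, and in all 88 fits that left out 1 library. It was also 0 in all 12 without control 4 and RMA-KR intermediate 3, 4 and 5 and with a term for them, both chosen after seeing the data. With no filter on low counts it became 1 in late RMA-KR, late RMA and early RMA against control and in intermediate RMA against intermediate RMA-KR (Il7r), 1 in late RMA against late RMA-KR (Il21r) and 1 in late against early RMA-KR (Jak3). In late against early RMA it became 1 (Il21r) with at least 10 counts in every library, with DESeq2 at its default settings and with its prior on fold changes, and DESeq2 at its default settings also gave 1 (Il21r) in late RMA against late RMA-KR. The share of all genes called under these settings is not given here, so these counts stand without a background. The cause of these differences was not tested. With the prior on fold changes, Pim2 in intermediate RMA was just under 2-fold, at 1.00 on the log2 scale. Of 330 median levels of members under alternatives, 5 moved by 1 SD or more, all in RMA-KR intermediate without libraries 3, 4 and 5, where the median became 788 CPM for Il2rg, 10.9 for Il7r, 72.9 for Il21r, 2836 for Jak1 and 162 for Jak3. No direction of a called result was reversed. With groups of 3 to 5 libraries, the intervals were widest for Il2ra and Il7r.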
